A study of Mus musculus with 6 samples.

Results

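The 9 genes described here encode some of the proteins with which a cell can bind fibroblast growth factor 1 (FGF1), and FGF1 itself. They are the receptors Fgfr1, Fgfr2, Fgfr3 and Fgfrl1, the ligand Fgf1, and the heparan sulfate proteoglycans Sdc2, Sdc3, Sdc4 and Gpc5. They were chosen by name, with earlier results of these data known, and all 9 were found among the 16411 genes listed. The samples were hypothalami of male ob/ob mice, which lack leptin, 11 weeks old. Each mouse received 3 µg of FGF1 R50E, a form of FGF1 with a substitution that weakens its binding to integrins, into a cerebral ventricle. The tissue was taken on day 5, dissociated into single cells and sequenced with the 10x Genomics 3′ v2 chemistry, 1 mouse per library. The labels name 6 mice, of which mice 3, 4, 30 and 34 have cells in the table, while mice 12 and 37 were not analysed here. All mice belong to 1 group (R50E, ob/ob), so every value below describes treated, leptin-deficient animals and no effect of the agent or the genotype was estimated.

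Fibroblast growth factors act by pairing receptor tyrosine kinases at the cell surface, and FGF1 can bind the main receptors of the family. Heparan sulfate, a long sulfated sugar chain, takes part in the complex of ligand and receptor, so the core proteins that carry these chains, the transmembrane syndecans and the lipid-anchored glypicans, are coreceptors. Fgfrl1 binds ligand but lacks the kinase domain of the other receptors. In the brain, Fgfr3 is known as a gene of astrocytes, Fgfr2 as a gene of oligodendrocytes, and Sdc3 as a syndecan of oligodendrocyte precursors and neurons.

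A total of 20151 of the 70323 cells in the table belonged to the 4 mice, with 7386, 3180, 3005 and 6580 cells and 8856079, 3898209, 3299971 and 7916843 UMIs (unique molecular identifiers, that is, counted molecules) in mice 3, 4, 30 and 34. The authors labelled 9 cell types: 5909 astrocytes, 4490 tanycytes, 1530 ependymal cells, 1261 oligodendrocyte precursor cells, 681 committed precursors, 4566 oligodendrocytes, 1266 endothelial cells, 380 microglia and 68 vascular leptomeningeal cells. No type was labelled as neurons. For each of the 9 types, the 5 defining markers of the label summed to their highest level in that type and none was at 0. Markers of mural cells, which have no label of their own, summed to 3246 to 3620 CPM in endothelial cells. Vascular leptomeningeal cells numbered 6 to 44 per mouse and fewer than 20 in 3 mice, so they were described only. Across mice, 194 cell barcodes occurred in more than 1 library, and 76 cells shared both barcode and type with a cell of another mouse. Levels below are in counts-per-million (CPM), a gene's share of all UMIs in the summed cells of 1 type and 1 mouse. Values with ± are means and SD over the 4 mice unless stated, and a level is relative to the RNA of its own type. Because 3′ counts depend on each gene's 3′ end, levels are compared between types and never between genes. Orders of types are given on this scale, and some of them change with TMM, the scaling that edgeR applies for the tests. Of 252 pairs of types, taken over the 9 genes and 8 types, 135 did not overlap on library totals. Of these 135 pairs, 132 did not overlap with TMM either. In 13 of the 252 pairs the overlap changed with TMM, some becoming separate and others overlapping. These counts were not taken over all genes.

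Fgfr3, Sdc4 and Gpc5 had their highest levels in astrocytes among the 8 types with enough cells, and their promoters are shown for that shared feature. Each sequence is from RefSeq (GRCm38.p6), spans 250 bases before to 50 after the annotated start, and is read 5′ to 3′ on the strand of the gene. Capitals mark the GC box, GGGCGG, on either strand. The windows lie at chr5:33721474-33721773 on the plus strand for Fgfr3 (the first of its starts), chr2:164443139-164443438 on the minus strand for Sdc4, and chr14:115091965-115092264 on the plus strand for Gpc5.
Fgfr3: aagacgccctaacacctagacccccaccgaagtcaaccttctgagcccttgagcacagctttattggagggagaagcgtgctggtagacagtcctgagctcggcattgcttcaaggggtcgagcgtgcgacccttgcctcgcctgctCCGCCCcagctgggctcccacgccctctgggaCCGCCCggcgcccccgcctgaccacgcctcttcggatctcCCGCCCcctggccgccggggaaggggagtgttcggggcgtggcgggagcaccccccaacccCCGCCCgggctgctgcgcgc
Sdc4: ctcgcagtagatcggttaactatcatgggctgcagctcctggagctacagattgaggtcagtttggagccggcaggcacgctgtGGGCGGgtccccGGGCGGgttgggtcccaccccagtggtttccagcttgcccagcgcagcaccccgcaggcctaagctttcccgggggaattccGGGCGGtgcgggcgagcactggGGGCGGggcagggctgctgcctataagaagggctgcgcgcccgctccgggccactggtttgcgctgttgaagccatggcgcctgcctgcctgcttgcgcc
Gpc5: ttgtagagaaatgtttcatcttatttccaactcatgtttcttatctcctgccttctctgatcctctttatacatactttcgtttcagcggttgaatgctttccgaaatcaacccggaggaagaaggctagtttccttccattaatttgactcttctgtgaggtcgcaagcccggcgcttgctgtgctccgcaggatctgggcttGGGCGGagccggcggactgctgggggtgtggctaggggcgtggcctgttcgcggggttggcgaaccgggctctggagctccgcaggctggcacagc
The Fgfr3 and Sdc4 windows held 4 GC boxes each and had GC contents of 69.67% and 67.67%, against a median of 52.67% over all promoters of the same length. The other Fgfr3 start (chr5:33722056-33722355, plus strand), not shown, had 2 GC boxes and a GC content of 73.0%. The Gpc5 window had 1 GC box, 1 match to TATAAA and a GC content of 54.67%. GGGCGG occurs in 35.7% and TATAAA in 13.6% of 32851 promoters, both strands counted. Neither the palindromic site of nuclear factor I (0.0365% of promoters) nor ACAAAG, a SOX core (18.7%), matched in any of the 3 windows. Promoters of 6 of the 9 genes were in the reference table.

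Fgfr3 (chr5:33721674-33737068, plus strand, GRCm38, protein coding), the receptor best known for its part in cartilage growth and in astrocytes, had the largest ratio between its highest and its next type of the 9 genes. Its level in astrocytes was 925, 836, 893 and 846 CPM in mice 3, 4, 30 and 34. In oligodendrocyte precursor cells, next by library totals, it was 107.3, 102.5, 135.9 and 112.4 CPM. The astrocyte values thus stood far above every other type in each mouse, and their ranges did not overlap. The means were 875 ± 41.4 CPM in astrocytes and 114.5 ± 14.8 CPM in oligodendrocyte precursor cells, a ratio of 7.64. Committed precursors were lowest at 37.8 ± 10.4 CPM, 23.1 times below astrocytes. Below astrocytes came oligodendrocyte precursor cells, ependymal cells (104.5 ± 13.8), tanycytes (92.6 ± 9.23), microglia (89.9 ± 37.9), endothelial cells (83.0 ± 27.8) and oligodendrocytes (76.8 ± 22.1), and each neighbour in this order overlapped with the next. This order depends on the scaling: with TMM ependymal cells came second (105 ± 11.3 CPM), then tanycytes (98.4 ± 10.9), oligodendrocyte precursor cells (96.2 ± 11.8), oligodendrocytes (91.7 ± 21.4), endothelial cells (85.6 ± 27.4) and microglia (82.6 ± 37.2). Neighbours among these 6 overlapped, so they could not be ordered, and the ratio of astrocytes to the next type was 8.86. Oligodendrocytes, at 55.6 to 98.8 CPM, lay above committed precursors, at 28.7 to 47.5 CPM, without overlap.

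At least 1 Fgfr3 UMI was found in 54.5% of astrocytes. With every cell thinned to 500 UMIs, to remove differences in depth, the share was 35.2% ± 1.73. In microglia, a type not known to use this receptor, the shares were 8.83% unthinned and 3.24% ± 1.51 thinned, at median depths of 939 UMIs per microglial cell and 851 per astrocyte. Thinned shares in the other types were 4.90% ± 1.05 in ependymal cells, 5.38% ± 1.19 in oligodendrocyte precursor cells, 4.16% ± 0.99 in tanycytes, 4.15% ± 1.41 in oligodendrocytes, 4.02% ± 0.93 in endothelial cells and 2.57% ± 0.65 in committed precursors. The means of tanycytes, oligodendrocytes and endothelial cells were thus nearly equal.

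To read the Fgfr3 levels outside astrocytes, they were set beside 5 astrocyte markers (Agt, Aqp4, Gja1, Gjb6 and Slc1a2), each as a percent of its astrocyte level. Fgfr3 stood at 10.6% in tanycytes, 11.9% in ependymal cells, 13.1% in oligodendrocyte precursor cells, 8.8% in oligodendrocytes, 9.5% in endothelial cells and 10.3% in microglia. In these 6 types it lay inside the range of the markers, for example between 10.1% and 24.4% in microglia and between 8.7% and 22.5% in oligodendrocytes. In committed precursors it was 4.3%, below all 5 markers, which ranged from 5.1% to 11.9%. All 5 markers had UMIs in every type: their summed level was 8131 to 8746 CPM in astrocytes, 1385 to 1567 CPM in microglia and 645 to 930 CPM in committed precursors. In microglia, oligodendrocytes and endothelial cells, Fgfr3 lay near the lower end of the markers' range, which was 8.8% to 24.2% in endothelial cells. In tanycytes, ependymal cells and oligodendrocyte precursor cells the range of the markers is wide, with Slc1a2 at 37.4% and 36.6% in the first and last and Aqp4 at 84.7% in ependymal cells. Whether the Fgfr3 UMIs outside astrocytes came from the cells themselves was not tested.

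For Sdc4 and Gpc5 the same comparison gave other values. Sdc4 stood at 40.2% of its astrocyte level in tanycytes, 65.3% in ependymal cells and 40.3% in microglia, and at 13.9%, 9.2%, 16.4% and 18.8% in oligodendrocyte precursor cells, committed precursors, oligodendrocytes and endothelial cells. In tanycytes and microglia these means were above those of all 5 markers, of which Slc1a2 was highest at 37.4% and 24.4%, but the mice overlapped, with Sdc4 at 37.2% to 43.5% and Slc1a2 at 34.0% to 41.6% in tanycytes, and 20.8% to 59.3% and 20.5% to 26.9% in microglia. In ependymal cells Aqp4, at 84.7%, was higher than Sdc4. Gpc5 stood at 63.1% in oligodendrocyte precursor cells and between 11.1% and 20.5% in the other 6 types. The Gpc5 value in oligodendrocyte precursor cells lay above the 5 markers, whose highest percent there was 36.6%, and in each mouse, at 44.7% to 84.1%, above the 38.7% that Slc1a2 reached. In committed precursors the mean of Gpc5, 13.4%, was also above the highest marker mean, 11.9%, with overlapping mice.

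**Figure D1:**
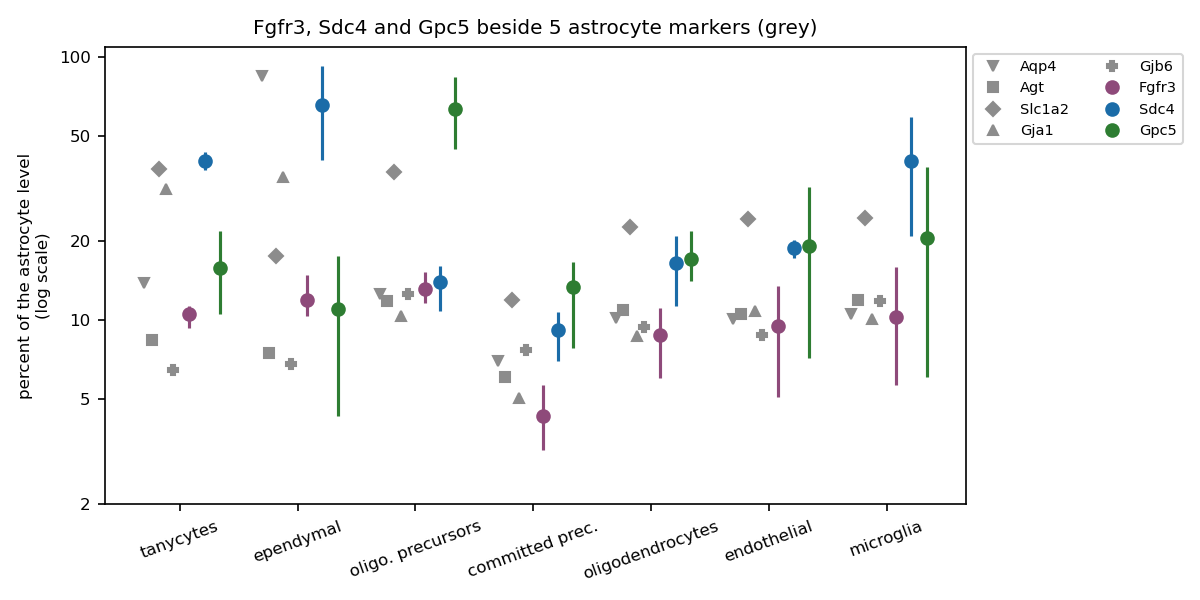
Level in each of 7 cell types as a percent of the level in astrocytes (log axis), for Fgfr3, Sdc4 and Gpc5 (coloured points: ratio of means over 4 mice, with the range over the mice as a line) and for 5 astrocyte markers (grey symbols). Fgfr3 runs among the grey symbols at 8.8% to 13.1% outside committed precursors, whereas Sdc4 reaches 65.3% in ependymal cells and Gpc5 63.1% in oligodendrocyte precursor cells.

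Fgfr1 (chr8:25513654-25575718, plus strand), the receptor of widest use in neural tissue, was spread over ventricular glia, astrocytes and precursors. Its level in ependymal cells, which line the ventricles and bear cilia, was 118.0, 155.9, 170.8 and 145.5 CPM in mice 3, 4, 30 and 34. In astrocytes it was 112.9, 87.4, 124.1 and 111.5 CPM. Ependymal cells were higher in each of the 4 mice on this scale, by a ratio of means of 1.35, but in 3 of 4 with TMM, where mouse 3 had 121.6 CPM in ependymal cells and 123 in astrocytes. The ranges overlapped on both scales, and the log2 fold change of astrocytes against ependymal cells, -0.29 ± 0.14 (SE), did not pass the test (adjusted p = 0.0858). Oligodendrocyte precursor cells (77.1 ± 10.6 CPM) and tanycytes (76.8 ± 8.81 CPM), the elongated glia of the ventricle floor, overlapped on library totals. With TMM tanycytes were higher in 4 of 4 mice without overlap, at 81.4 ± 8.47 against 64.7 ± 7.98 CPM, so their order depends on the scaling. Endothelial cells were at 36.9 ± 10.4 CPM, clear of tanycytes in every mouse. Fgfr1 was lowest in committed precursors, with 5, 1, 2 and 5 UMIs and 10.3 ± 6.04 CPM. In the 68 vascular leptomeningeal cells it had 2, 10, 9 and 1 UMIs, which gave 357.7, 453.0, 106.9 and 79.8 CPM, a spread too wide to place that type. The share of cells with a UMI, thinned, was 6.37% ± 1.75 in ependymal cells and 5.42% ± 0.32 in astrocytes, against 0.391% ± 0.781 in microglia.

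Fgfr2 (chr7:130162451-133123350, minus strand), a receptor of myelinating cells, was highest in oligodendrocytes. Its level there was 231.5, 204.6, 197.5 and 239.0 CPM in mice 3, 4, 30 and 34. In ependymal cells, next among the 8 types, it was 29.1, 40.4, 52.7 and 36.1 CPM. Oligodendrocytes stood above ependymal cells by a ratio of 5.51 and no mouse overlapped. Astrocytes (26.7 ± 5.91 CPM) and tanycytes (26.6 ± 2.77 CPM) had nearly equal means, with a log2 fold change of -0.00 ± 0.18 (SE) between them, an estimate whose sign turned under other settings. Oligodendrocyte precursor cells had 6, 1, 0 and 2 UMIs and committed precursors 8, 6, 2 and 1. The thinned share of cells with a UMI was 10.4% ± 1.48 in oligodendrocytes and 0.263% ± 0.526 in microglia. As a percent of the oligodendrocyte level, Fgfr2 was 12.2% in astrocytes, 12.2% in tanycytes, 18.1% in ependymal cells and 8.9% in microglia. Of 5 oligodendrocyte markers (Ermn, Mag, Mobp, Mog and Opalin), the myelin gene Mobp came to 14.5% in astrocytes and 8.9% in ependymal cells, and the median of the 5 was 1.00% and 0.833%.

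Fgfrl1 (chr5:108692382-108706924, plus strand), the receptor without a kinase, had 361 UMIs in all cells, so its levels rest on few UMIs. Its level was 46.0, 16.4, 29.7 and 48.2 CPM in oligodendrocyte precursor cells and 28.1, 30.6, 23.9 and 47.1 CPM in committed precursors. These 2 types overlapped, with means of 35.1 ± 14.9 and 32.4 ± 10.2 CPM. Astrocytes followed at 21.7 ± 3.22 CPM and oligodendrocytes had 5.80 ± 2.28 CPM. In ependymal cells the 4 mice had 1, 4, 13 and 2 UMIs, and mouse 30, with 27.4 CPM, was above mouse 3 (1.62 CPM), mouse 4 (11.5 CPM) and mouse 34 (2.41 CPM). In vascular leptomeningeal cells no Fgfrl1 UMI was found, which allows a share of cells with a UMI of up to 4.41% (a limit of 3 UMIs over the 68 pooled cells).

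**Figure D2:**
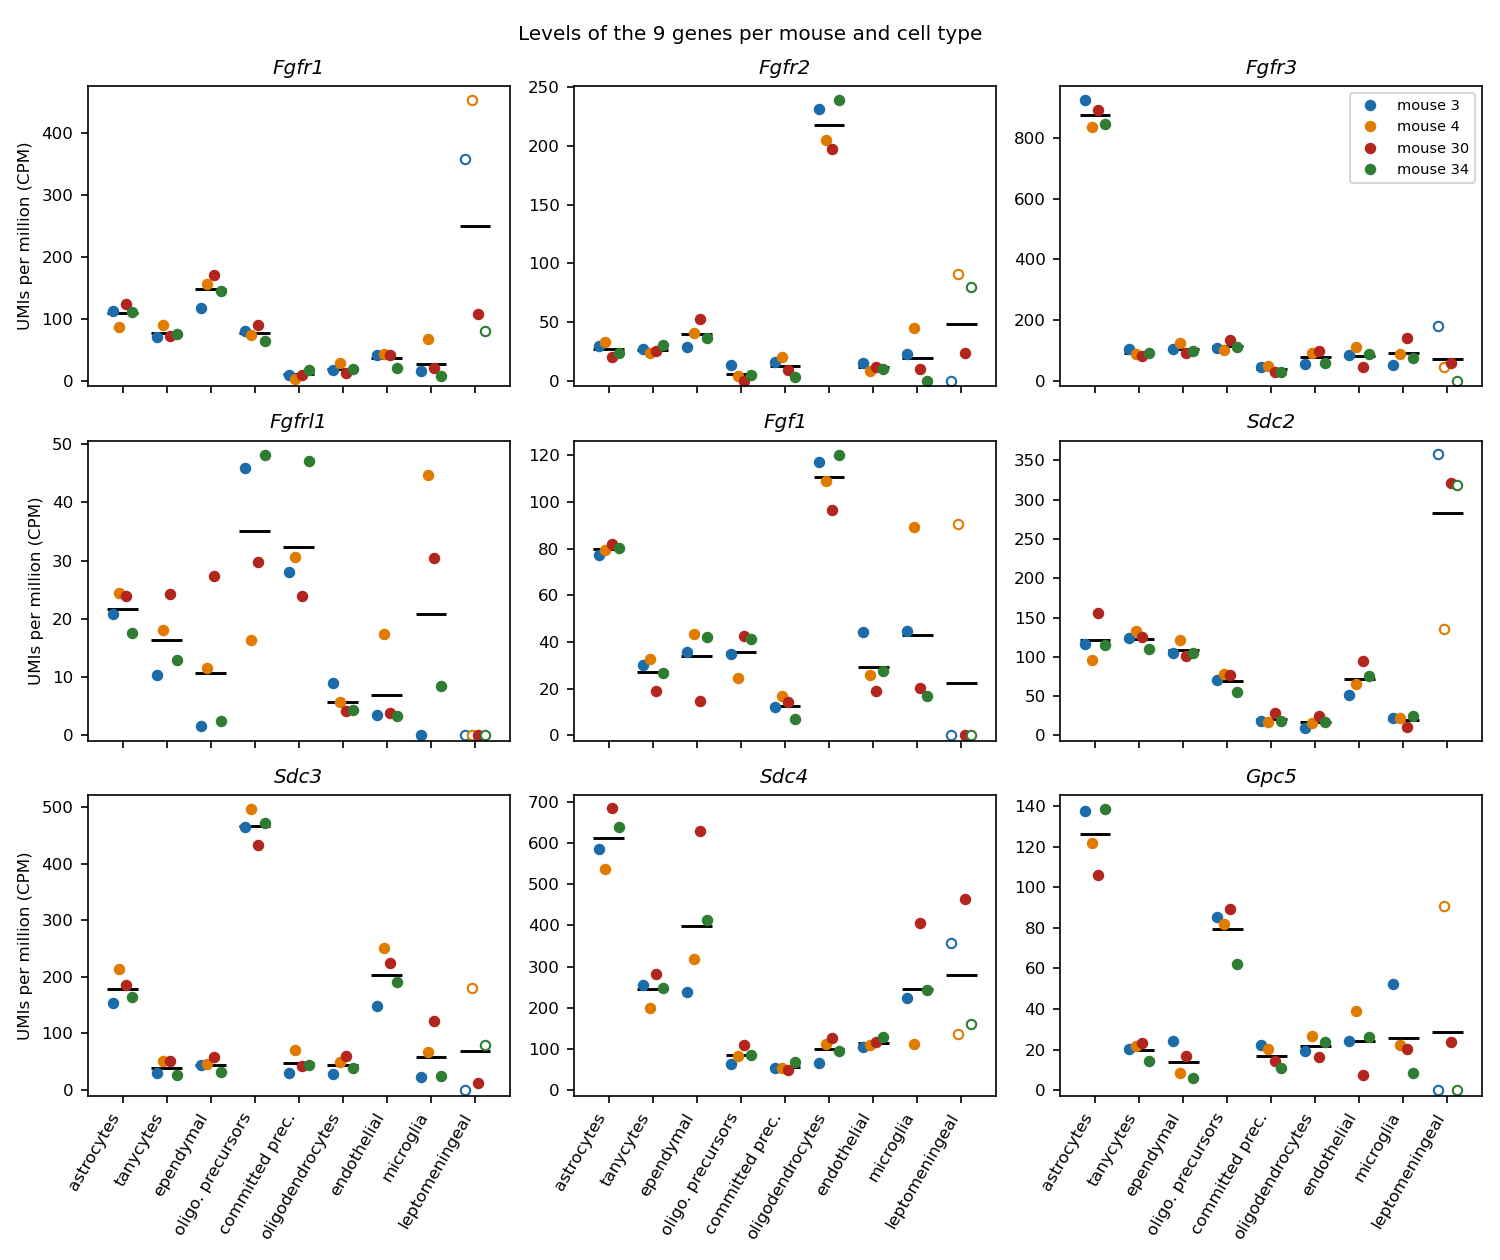
Level of each of the 9 genes in CPM (linear axes from 0) for each mouse and cell type, with 1 point per mouse, the mean as a bar and hollow points where the mouse had fewer than 20 cells of the type. The astrocyte points of Fgfr3 lie between 836 and 925 CPM and the oligodendrocyte points of Fgfr2 between 197.5 and 239.0 CPM, both clear of the other types.

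The make-up of the receptor transcripts was compared next, since each gene's part of the Fgfr1, Fgfr2 and Fgfr3 UMIs can be compared between types, though not with the parts of the other genes. In astrocytes, Fgfr3 gave 86.6% ± 0.58 of the 3 receptors' UMIs, Fgfr1 10.8% ± 1.23 and Fgfr2 2.66% ± 0.65. The Fgfr3 part was between 86.1% and 87.4% in every mouse. In tanycytes, Fgfr3 gave 47.2% ± 3.41 and Fgfr1 39.2% ± 4.01. In ependymal cells the Fgfr1 part was larger than in tanycytes, at 50.5% ± 3.16, and the Fgfr3 part smaller, at 36.1% ± 5.20, and neither range overlapped between the types. Oligodendrocyte precursor cells had 58.1% ± 3.90 Fgfr3 and 39.0% ± 2.46 Fgfr1, with 2.83% ± 2.71 Fgfr2. Oligodendrocytes had 69.4% ± 6.97 Fgfr2, between 62.8% and 75.8% in the mice. Endothelial cells rested on 26 to 83 receptor UMIs per mouse and varied from 46.2% to 74.0% Fgfr3.

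Because Fgfr3 outside astrocytes lay within the range of astrocyte markers or, in committed precursors, under it, the ratio was also taken without it. Of Fgfr1 and Fgfr2 UMIs alone, Fgfr2 made up 91.8% ± 2.75 in oligodendrocytes. It made up 19.99% ± 5.82 in astrocytes, 25.9% ± 3.47 in tanycytes and 21.0% ± 1.79 in ependymal cells. These last 3 types overlapped with one another and each lay below oligodendrocytes in all mice. In oligodendrocyte precursor cells the value was 6.87% ± 6.98 over 3 mice with at least 20 UMIs. On this scale Fgfr1 made up 79.0% in ependymal cells.

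**Figure D3:**
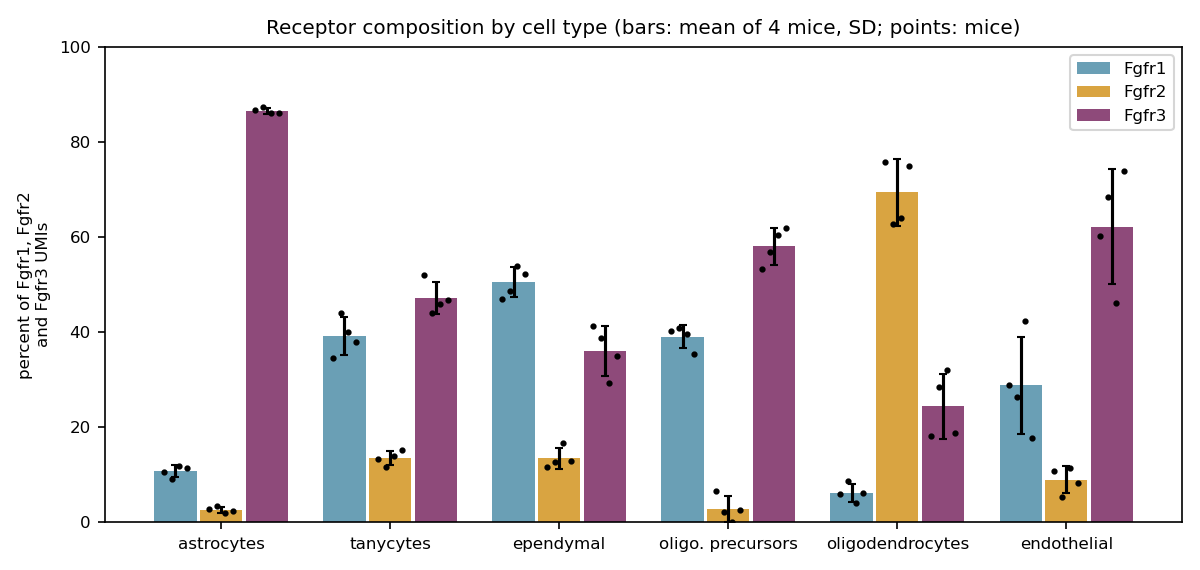
Percent of the summed Fgfr1, Fgfr2 and Fgfr3 UMIs that each receptor gave in the 6 types with at least 20 such UMIs in all 4 mice (bars: mean, with SD; points: mice). Fgfr3 makes up 86.6% in astrocytes, Fgfr2 69.4% in oligodendrocytes and Fgfr1 50.5% in ependymal cells.

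Fgf1, the gene of the natural ligand whose mutant form was injected, had its highest level in oligodendrocytes. It was at 117.3, 108.9, 96.7 and 120.3 CPM there and at 77.5, 79.7, 82.1 and 80.5 CPM in astrocytes, in mice 3, 4, 30 and 34. Oligodendrocytes were higher in all 4 mice without overlap, by a ratio of 1.39. The other 6 types with enough cells had means between 12.7 ± 4.13 CPM (committed precursors) and 42.9 ± 33.4 CPM (microglia), where 14 UMIs set the microglial value. The thinned share of cells with a UMI was 4.96% ± 1.27 in oligodendrocytes, 3.59% ± 0.43 in astrocytes and 1.53% ± 1.2 in microglia. As a percent of the oligodendrocyte level Fgf1 was 72.1% in astrocytes, where the highest oligodendrocyte marker was at 14.5%. In astrocytes the 4 mice spread by a CV of 2.36%, under the 11.6% that counting alone would give.

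Sdc4 (chr2:164424247-164443887, minus strand), a syndecan found at focal adhesions, had its highest mean in astrocytes. Its level was 585.7, 537.1, 684.4 and 639.3 CPM in astrocytes. In ependymal cells it was 237.7, 317.6, 630.6 and 412.6 CPM, and in tanycytes 254.6, 199.6, 281.2 and 248.2 CPM. Astrocytes were above ependymal cells in each of the 4 mice, by a ratio of means of 1.53, but the ranges overlapped through mouse 30. Microglia had 246.6 ± 121 CPM from 30, 5, 40 and 29 UMIs and overlapped with tanycytes. In the 68 vascular leptomeningeal cells 46 UMIs gave 279 ± 158 CPM, and 39.7% of these cells, pooled, had a UMI. Committed precursors were lowest, at 56.3 ± 8.88 CPM. At least 1 UMI was found in 42.9% of astrocytes, 37.8% of ependymal cells and 16.9% of microglia, and in 25.8% ± 2.9, 16.8% ± 6.56 and 7.68% ± 6.08 after thinning.

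The spread of Sdc4 between mice in ependymal cells was the widest beyond counting of the 38 pairs of gene and type with at least 100 UMIs. Its CV was 42.5% where counting alone would give 7.02%, a ratio of 6.05. The ependymal cells fell mostly into clusters 8 and 14 of the authors. In cluster 14, Sdc4 was at 233, 272, 704 and 437 CPM in mice 3, 4, 30 and 34. In cluster 8 it was at 237, 353, 321 and 379 CPM, so that mouse 30 stood apart in cluster 14 and among the other mice in cluster 8. Mouse 30 also had 75.5% of its ependymal cells in cluster 14, against 23.9%, 22.04% and 37.0% in mice 3, 4 and 34. Cells of cluster 14 were deeper, with a median of 1467.5 UMIs against 1027.5 in cluster 8. The part of cluster make-up and depth in the spread was not tested.

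**Figure D4:**
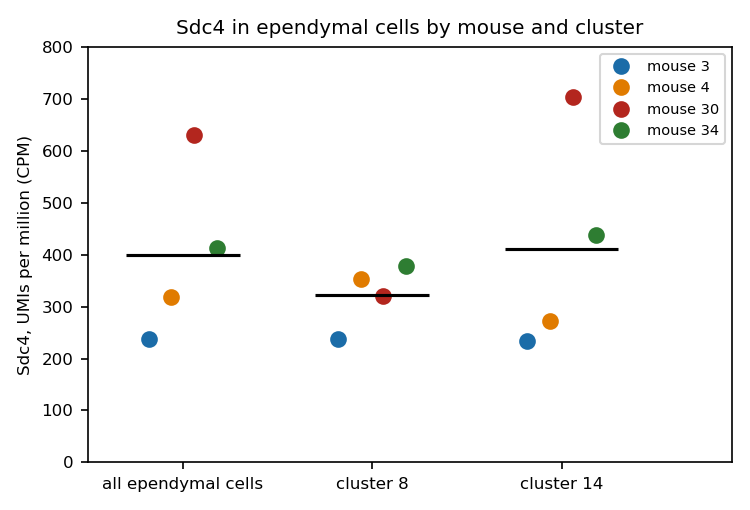
Sdc4 level (CPM) in all ependymal cells and in the authors' clusters 8 and 14, with 1 point per mouse and the mean as a line. Mouse 30 stands at 704 CPM in cluster 14, above the 233 to 437 CPM of the other mice, and at 321 CPM in cluster 8, inside their range.

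Sdc3 (chr4:130792537-130826319, plus strand), a syndecan of the nervous system, was highest in oligodendrocyte precursor cells, at 464.2, 496.1, 433.1 and 472.7 CPM. In endothelial cells, next in the order, it was 149.0, 251.3, 223.9 and 191.3 CPM, and in astrocytes 154.6, 213.3, 186.1 and 163.9 CPM. The precursor cells stood above endothelial cells without overlap, by a ratio of 2.29, while endothelial cells and astrocytes overlapped. The remaining 5 types with enough cells had means between 39.7 ± 12.9 CPM (tanycytes) and 59.1 ± 46.4 CPM (microglia), and neighbours among them overlapped. In oligodendrocyte precursor cells 38.0% of cells had a UMI, and 20.8% ± 0.90 after thinning, against 6.30% and 2.64% ± 1.96 of microglia. As a percent of the precursor level Sdc3 was 43.7% in endothelial cells and 38.5% in astrocytes, while the 5 precursor markers (C1ql1, Cacng4, Cspg4, Matn4 and Pdgfra) were at most 21.8% and 3.46% there. In committed precursors it was 10.1%, below the median of 15.6% that these markers had.

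Sdc2 (chr15:32920723-33034935, plus strand), a syndecan of mesenchymal cells, was shared between tanycytes (123.4, 132.7, 125.4 and 109.8 CPM), astrocytes (116.0, 96.4, 156.1 and 115.5 CPM) and ependymal cells (105.1, 121.3, 101.2 and 104.6 CPM). These 3 types overlapped and the ratio of tanycytes to astrocytes was 1.02. With TMM tanycytes (130.2 ± 8.20 CPM) lay above ependymal cells (108.7 ± 6.32 CPM) without overlap. Endothelial cells (71.6 ± 18.3 CPM) and oligodendrocyte precursor cells (69.9 ± 10.4 CPM) formed a middle level, and committed precursors, microglia and oligodendrocytes a low one of 16.9 to 20.5 CPM on average. In vascular leptomeningeal cells, the fibroblast-like cells of the brain's coverings, 36 UMIs gave 357.7, 135.9, 320.8 and 319.2 CPM, each above tanycytes of the same mouse.

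Gpc5 (chr14:115092215-116525179, plus strand), a glypican, was at 137.8, 122.1, 106.1 and 138.4 CPM in astrocytes and at 85.4, 82.0, 89.2 and 61.9 CPM in oligodendrocyte precursor cells. The astrocyte values were all higher, by a ratio of means of 1.58, and did not overlap. The other types with enough cells had 13.95 to 25.9 CPM on average. The thinned share of cells with a UMI was 5.72% ± 1.2 in astrocytes, 3.33% ± 1.32 in oligodendrocyte precursor cells and 1.05% ± 0.97 in microglia. Over the 9 genes, 5 (Fgf1, Fgfr2, Fgfr3, Sdc3 and Gpc5) had a highest type whose 4 mice all lay above the next type, as did 35.3% of the 10491 genes with at least 20 CPM in some type.

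The types were then compared within mice, to ask which of the 9 genes separate neighbouring types. The test was the quasi-likelihood F test of edgeR on the summed counts with mouse as a block, Benjamini-Hochberg adjusted over all genes tested. Calls required both an adjusted p under 0.05 and a change of more than 1 on the log2 scale, up or down. The authors defined the types on the same cells, so these calls describe the types. Tested over the 8 types together, all 9 genes differed between types, as did 92.3% of 10166 genes.

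Astrocytes and tanycytes differed in 5 of the 9 genes, beside 21.1% of the 10081 genes tested. All 5 were lower in tanycytes, in 4 of 4 mice. The log2 fold changes (± SE) were -3.24 ± 0.087 for Fgfr3 (adjusted p = 2.79e-27), -2.78 ± 0.15 for Gpc5, -2.27 ± 0.13 for Sdc3, -1.54 ± 0.14 for Fgf1 and -1.33 ± 0.079 for Sdc4. Fgfr1 was at -0.55 ± 0.12 (adjusted p = 1.72e-04) and Fgfrl1 at -0.55 ± 0.22 (adjusted p = 0.0373), both inside the fold limit, and Sdc2 at 0.01 ± 0.11 (adjusted p = 0.925).

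Astrocytes and ependymal cells also differed in 5 of 9 genes, beside 31.8% of 8371. Gpc5 (3.33 ± 0.25), Fgfr3 (3.20 ± 0.13), Sdc3 (2.13 ± 0.16) and Fgf1 (1.31 ± 0.20) were higher in astrocytes in all 4 mice. Fgfrl1 (1.45 ± 0.42, adjusted p = 0.00584) was higher in 3 of 4 mice and its call was lost without mouse 3 (adjusted p = 0.0527) and without mouse 34 (0.0581), while the value was 2.45 without mouse 30. Sdc4 was at 0.81 ± 0.15 (adjusted p = 8.70e-05), inside the fold limit, and at 1.01 without mouse 30.

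Between tanycytes and ependymal cells none of the 9 genes was called by edgeR or DESeq2, beside 19.8% of 8781 genes. At an unadjusted p below 0.05, 4 of the 9 (Fgfr1, Sdc4, Fgfrl1 and Sdc2) passed, beside 52.3% of all genes. Fgfr1 was lower in tanycytes in 4 of 4 mice, at -0.85 ± 0.13 (adjusted p = 4.77e-07), and Sdc4 in 3 of 4, at -0.55 ± 0.12 (adjusted p = 1.21e-04). Fgfrl1 was at 0.91 ± 0.39 (adjusted p = 0.0487) and Sdc2 at 0.26 ± 0.12 (adjusted p = 0.0803).

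Endothelial cells differed from astrocytes in 7 of 9 genes, beside 35% of 7616, and all 7 were lower in endothelial cells in 4 of 4 mice. They ran from -3.44 ± 0.14 for Fgfr3 to -1.21 ± 0.33 for Fgfr2. Sdc3 was at 0.10 ± 0.12 (adjusted p = 0.465) and Sdc2 at -0.85 ± 0.16 (adjusted p = 4.67e-06), inside the fold limit. The part of the mural cell transcripts in these values was not tested.

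The oligodendrocyte lineage was followed from precursor to committed cell to mature cell. Oligodendrocyte precursor cells against astrocytes gave calls for 6 of 8 genes tested, beside 23.2% of 6902, and Fgfr2 was too low to be tested. Fgfr3 (-3.24 ± 0.12), Sdc4 (-3.18 ± 0.13), Fgf1 (-1.42 ± 0.20), Sdc2 (-1.10 ± 0.16) and Gpc5 (-1.02 ± 0.16) were lower in the precursor cells, and Sdc3 (1.13 ± 0.10) was higher, each in 4 of 4 mice. The Sdc2 and Gpc5 calls lie at the fold limit: without mouse 34 they were -0.996 and -0.84 and not called. They also depend on TMM: with library totals alone, the scale of the CPM values, Sdc2 was at -0.79 and Gpc5 at -0.71, and neither was called. TMM moved the median of all genes in this comparison from 0.32 to 0.01, and the share of calls that were higher in precursor cells was 46.8% with it and 63.4% without. Fgfr1 was at -0.82 ± 0.16 (adjusted p = 1.25e-05) and Fgfrl1 at 0.61 ± 0.27 (adjusted p = 0.0592).

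From precursor cells to committed precursors 5 of 6 tested genes were called, all lower in 4 of 4 mice, beside 24% of 4879 genes. Sdc3 had the steepest step, -3.34 ± 0.17 (adjusted p = 3.61e-33), from 466 ± 26.0 to 47.0 ± 17.4 CPM. Fgfr1 was at -2.83 ± 0.35, Gpc5 at -2.11 ± 0.30, Sdc2 at -1.77 ± 0.30 and Fgfr3 at -1.47 ± 0.22. Sdc4 was at -0.48 ± 0.22 (adjusted p = 0.0702). The 5 astrocyte markers were at -0.83 (Agt), -0.68 (Aqp4), -0.93 (Gja1), -0.64 (Gjb6) and -1.62 (Slc1a2) in this comparison. Slc1a2 alone was called, and the others fell by less than Fgfr3. The part of the markers in the Fgfr3 value was not tested.

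From committed precursors to oligodendrocytes 4 of 7 tested genes were called, beside 27.1% of 6209. Fgfr2 was higher in oligodendrocytes by 4.31 ± 0.22 (adjusted p = 6.77e-28) and Fgf1 by 3.42 ± 0.25 (adjusted p = 7.31e-20), in 4 of 4 mice each. Fgfrl1 was lower, at -2.07 ± 0.35, in 4 of 4 mice. Fgfr3 was called at 1.11 ± 0.21, beside 0.97 (Agt), 0.64 (Aqp4), 0.89 (Gja1), 0.53 (Gjb6) and 1.19 (Slc1a2) for the astrocyte markers, and their part in it was not tested. Its level in oligodendrocytes was 55.6, 92.8, 98.8 and 60.2 CPM where the 5 markers summed to 1105, 1396, 1613 and 1236 CPM in mice 3, 4, 30 and 34, so both were higher in mice 4 and 30. Sdc4 was at 0.98 ± 0.18 (adjusted p = 3.59e-06), at the fold limit.

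A small cluster bore on these values. Cluster 22 of the authors held 106 oligodendrocytes, 0.899%, 5.90%, 5.07% and 1.03% of those of mice 3, 4, 30 and 34. Pooled, its Fgfr3 level was 398 CPM and its 5 astrocyte markers summed to 4333 CPM, while its Fgfr2 level was 227 CPM. Without these cells Fgfr3 in oligodendrocytes was 65.6 ± 15.7 CPM in place of 76.8 ± 22.1, and its difference from committed precursors was 0.91 (adjusted p = 3.22e-04), no longer called. Without mouse 30 it was 0.97, and with library totals in place of TMM 0.84, and likewise not called. In this comparison the median of all genes was 0.01 with TMM and -0.27 without, and 50.8% and 34.9% of the calls were higher in oligodendrocytes. Fgfr2 (4.31), Fgf1 (3.43) and Fgfrl1 (-2.07) were called without them as well.

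**Figure D5:**
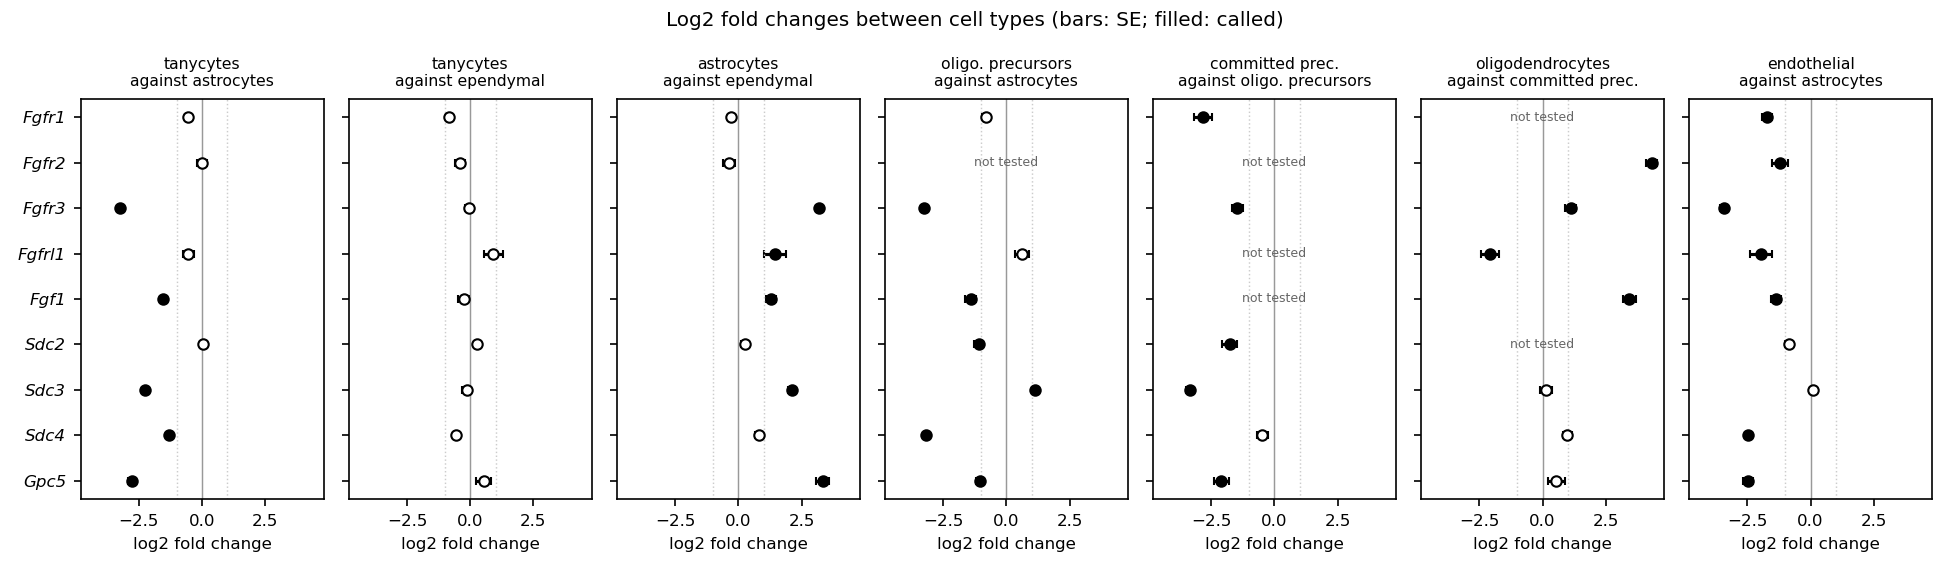
Log2 fold changes of the 9 genes in the 7 comparisons between cell types (points, with SE as bars), filled where called and open where not, with dotted lines at the fold limit. Fgfr2 and Fgf1 reach 4.31 and 3.42 in oligodendrocytes against committed precursors, Sdc3 -3.34 in committed precursors against precursor cells, and no point is filled between tanycytes and ependymal cells.

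Within types, the authors' clusters differed in some of the 9 genes. Among astrocytes, cluster 7 (585 cells) had 550 ± 50.3 CPM of Fgfr3, between 498 and 617 CPM in the mice. Clusters 0, 2 and 18 had 855 ± 55.5, 1012 ± 56.4 and 960 ± 34.5 CPM, and none of their mice overlapped with cluster 7. In cluster 24 (77 cells), the 2 mice with at least 20 cells had 544 and 929 CPM, of which the first lies within the range of cluster 7. The 5 astrocyte markers summed to 6150 CPM in cluster 7 and to 7768, 9964, 7275 and 7852 CPM in clusters 0, 2, 18 and 24. The 5 tanycyte markers summed to 268 CPM in cluster 7 against 61.3, 51.5, 84.3 and 39.5 CPM, and the 5 ependymal markers to 354 CPM against 259.98, 257, 229 and 198 CPM. Cluster 18 had 705 CPM of microglial markers, against 49.3 to 92.2 CPM in the other 4. Their part in the levels was not tested. Sdc3 was also lower in cluster 7, at 106.1 ± 21.1 CPM against 174.8 ± 27.9 in cluster 0, whereas Sdc4 was 563 ± 69.3 against 591 ± 84.0 CPM. Among tanycytes, Fgfr3 was 122 ± 3.97 CPM in cluster 3, 106.7 ± 37.1 in cluster 11, 72.9 ± 11.4 in cluster 1 and 54.0 ± 10.7 in cluster 10 (3 mice), and 76.5 CPM in cluster 21, where 1 mouse had at least 20 cells. Pooled over the mice, Fgfr3 was 121.9, 123.5, 76.2, 54.4 and 79.9 CPM in clusters 3, 11, 1, 10 and 21, and the 5 astrocyte markers summed to 2647, 3159, 1799.8, 1734 and 2890 CPM. Both pooled values were highest in cluster 11 and lowest in cluster 10. Cluster 21, however, was above cluster 3 in the markers and below it in Fgfr3. By the means over the mice Fgfr3 was highest in cluster 3. The part of the markers in the Fgfr3 levels was not tested. Since clusters were made from these genes too, such differences describe the clusters and were not tested.

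Other genes of the pathway were read from a list of 87 names, of which 72 were in the table. In the comparison of tanycytes with astrocytes 12 of 49 tested genes were called, 4 higher and 8 lower, beside 21.1% of all genes tested. The median log2 fold change of the list was -0.07 against -0.01 over all genes, and in the other comparisons it lay between -0.22 and 0.22. Called there were 8 of 42 between tanycytes and ependymal cells (19.8% of all genes) and 14 of 40 between astrocytes and ependymal cells (31.8%). Against astrocytes, oligodendrocyte precursor cells had 7 of 40 (23.2%) and endothelial cells 20 of 40 (35%). Committed precursors had 7 of 28 against precursor cells (24%), and oligodendrocytes 7 of 30 against committed precursors (27.1%).

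Among the ligands, Fgf10, which signals through Fgfr2, was higher in tanycytes (55.7 ± 8.55 CPM) than in astrocytes (3.23 ± 1.60) and ependymal cells (3.24 ± 2.66). The log2 fold changes were 4.14 ± 0.26 and 4.00 ± 0.33. Fgf7, another ligand of Fgfr2, was at 59.0 ± 20.6 CPM in ependymal cells. It was lower in tanycytes, at 0.670 ± 0.530 CPM (-6.30 ± 0.40), and in astrocytes, at 0.363 ± 0.475 CPM (-6.13 ± 0.41). Fgf12 and Fgf13, members that stay inside the cell, were higher in oligodendrocyte precursor cells than in astrocytes, by 1.43 ± 0.31 and 1.19 ± 0.32.

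Among receptor partners, Cdh2 (N-cadherin), which binds Fgfr1, was at 395 ± 27.8 CPM in tanycytes, above astrocytes by 1.43 ± 0.089 and above ependymal cells by 2.23 ± 0.11. Ncam1, a neural adhesion protein that also binds the receptors, was lower in tanycytes than in astrocytes (-1.06 ± 0.088), far lower in endothelial cells (-3.01 ± 0.16), and lower in oligodendrocytes than in committed precursors (-1.19 ± 0.098). Flrt3, of a family of transmembrane partners, was higher in oligodendrocyte precursor cells than in astrocytes by 3.67 ± 0.36.

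Of the other core proteins, 0 of 3 tested were called between oligodendrocyte precursor cells and astrocytes, beside 23.2% of all genes. Some were called in other comparisons. Gpc3 was at 65.5 ± 16.5 CPM in tanycytes, above astrocytes by 4.34 ± 0.25 and above ependymal cells by 4.81 ± 0.35. Hspg2 (perlecan) and Agrn (agrin), proteins of the basement membrane, were higher in endothelial cells than in astrocytes, by 5.06 ± 0.34 and 1.05 ± 0.13. Gpc1 was lower in tanycytes (-2.04 ± 0.23) and endothelial cells (-2.77 ± 0.41) than in astrocytes.

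Among the enzymes that build the chains, Xylt1, which adds the first sugar, fell along the oligodendrocyte lineage from 447 ± 22.6 to 135 ± 27.3 to 15.6 ± 8.42 CPM, by -1.67 ± 0.13 and -3.12 ± 0.22. Extl1 was higher in astrocytes than in tanycytes, ependymal cells and endothelial cells, and Ext1, a polymerase of the chain, was higher in ependymal cells than in astrocytes and tanycytes. Of the enzymes that modify the chains, Papss2, which makes the sulfate donor, was at 80.6 ± 8.15 CPM in astrocytes and called lower in tanycytes, ependymal cells, oligodendrocyte precursor cells and endothelial cells. Sulf2, which removes 6-O-sulfate at the cell surface, was at 488 ± 35.5 CPM in oligodendrocyte precursor cells, 667 ± 65.6 in committed precursors and 96.2 ± 9.73 in oligodendrocytes, the last step being -2.52 ± 0.10. It was also higher in ependymal cells than in tanycytes and astrocytes. Hs3st1, a 3-O-sulfotransferase, was higher in oligodendrocytes than in committed precursors by 1.45 ± 0.22 and higher in endothelial cells than in astrocytes by 4.10 ± 0.45.

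Of the genes that relay the signal inside the cell, 4 of 12 tested were called between committed precursors and precursor cells, beside 24% of all genes. It was 1 of 13 between oligodendrocytes and committed precursors (27.1% of all), 3 of 15 between astrocytes and ependymal cells (31.8%) and 5 of 16 between endothelial cells and astrocytes (35%). These are counts by edgeR. DESeq2 called 3 between committed precursors and precursor cells and 6 between endothelial cells and astrocytes. Neither edgeR nor DESeq2 called any of 17 between tanycytes and astrocytes, of 17 between tanycytes and ependymal cells or of 15 between precursor cells and astrocytes, where 5, 6 and 7 had an unadjusted p below 0.05, beside 55.9%, 52.3% and 53% of all genes. From precursor cells to committed precursors, Ptpn11 (SHP2), Mapk3 (ERK1) and Nras were higher, by 1.63 ± 0.19, 1.37 ± 0.20 and 1.08 ± 0.18, and Map2k1 (MEK1) was lower by -1.07 ± 0.31. Among those higher in endothelial cells than in astrocytes were Mapk3, Shc1, Plcg1 and Nras, by 1.10 to 1.48.

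For each of the 9 genes, the 3 genes with the most similar pattern over 32 sums (8 types in 4 mice) were found by Pearson correlation of log2(CPM + 1) among 10491 genes. The sums of a type share cells and background, so r is a description. Fgfr3 was closest to Slc4a4 (0.954), Slc6a11 (0.943) and Glud1 (0.938). Sdc4 was closest to Gja1 (0.883), and Gpc5 to Adcyap1r1 (0.878). Fgfr2 was closest to Smim1 (0.874), and Aspa, an enzyme of oligodendrocytes, was also among its 3 (0.805). Fgf1 was closest to Tmem229a (0.827). Sdc3 was closest to Fry (0.831) and to Spry4 (0.826), an inhibitor of receptor tyrosine kinase signalling. Fgfr1 was closest to Ramp1 (0.867) and Fgfrl1 to Ampd3 (0.790). Among the 9 genes themselves the closest pairs were Fgfr1 and Sdc2 (0.81), Fgfr3 and Sdc4 (0.72), and Fgfr3 and Gpc5 (0.71).

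Between mice, 13 of the 38 pairs of gene and type with at least 100 UMIs spread less than counting alone would give and 8 spread more than 2 times as much. After Sdc4 in ependymal cells the widest were Sdc4 in astrocytes (2.51 times), oligodendrocytes (2.47) and tanycytes (2.42) and Fgfr3 in oligodendrocytes (2.37). Fgfr3 in astrocytes, with 4831 UMIs, spread by a CV of 4.73% where counting gives 3.47%.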

How the data were processed

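Single cells of 4 mice were analysed from a table made by the authors. The deposited values are whole UMI counts per gene and cell, not normalized. The submitters' processing notes name Cell Ranger 1.2, Seurat and the builds GRCm38, mm10 and GRCh38 without giving their roles. Beside each cell the authors deposited a type label, a cluster number, the mitochondrial percent of its UMIs (at most 20.0% in these cells) and a doublet score as a fraction, and the smallest cell held 487 UMIs. The doublet call was negative for every cell, and whether doublets were removed before deposit is not given in the sources used here. Leaving out the 5% of cells of highest score was an alternative. A further 50172 cells of 12 libraries that the labels do not name were not used, nor were the depth-corrected counts. The authors' type names were used as deposited, with a marker check.

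UMI counts were summed per mouse and type, and no gene name was repeated. Levels are CPM of each sum. Shares of cells were taken as they are and with each cell thinned to 500 UMIs (1 cell was shallower). Differences between types were fitted on all genes with edgeR 4.0.16 in R 4.3.3 (TMM, filterByExpr, quasi-likelihood F test, mouse as a block since both types come from the same animal), and Benjamini-Hochberg adjusted over all genes tested. A mouse needed 20 cells of a type. DESeq2 1.42.0 was an alternative. The 4 mice are separate animals of 1 group, so p-values measure differences between types within them. The fits were tested on simulated counts. Composition needed 20 receptor UMIs per mouse. Clusters under 50 cells were left out. Gene positions are from the GENCODE annotation of GRCm38, matched by symbol, and promoters from RefSeq. The 9 genes, the pathway list of 87 names and the marker lists were chosen with earlier results of these data known. The genes named are the 9, those of these lists, and for each of the 9 the 3 of most similar pattern among genes of at least 20 CPM in some type. Python 3.11.15, numpy 2.4.6, pandas 2.3.3 and scipy 1.17.1 were used. The alternatives are given with their effect in the closing section. Limits on shares cover counting error only. Some results on single genes of these lists are not reported here.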

Additional observations from a re-analysis of the deposited data

Results flagged for a closer look

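In 3 of 90 values screened (3.33%), 1 of the 4 mice stood apart from the other 3 by Dixon's criterion, and chance alone gives about 5%. Fgfr1 in endothelial cells was 21.3 CPM in mouse 34, from 13 UMIs, against 41.1 to 43.3 CPM in the other mice. Fgfrl1 in endothelial cells was 17.3 CPM in mouse 4, from 4 UMIs, against 3.27 to 3.79 CPM. Sdc2 in committed precursors was 28.7 CPM in mouse 30, from 6 UMIs, against 17.0 to 18.1 CPM. All 3 values rest on few UMIs.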

How the results depend on the processing

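Of 57 tests of a gene in a comparison 32 gave calls, and 28 of these calls were kept under every alternative that tested them. The other 4 were Fgfr3 between oligodendrocytes and committed precursors (0.97 without mouse 30, 0.91 without cluster 22, 0.84 with library totals in place of TMM), Fgfrl1 between astrocytes and ependymal cells (1.05 without mouse 3, 1.10 without mouse 34), Gpc5 between oligodendrocyte precursor cells and astrocytes (-0.98 with DESeq2, -0.84 without mouse 34, -0.71 with library totals), and Sdc2 in the same comparison (-0.996 without mouse 34, -0.79 with library totals). The exclusion of cluster 22, the ratio of Fgfr1 and Fgfr2 alone and the fit on library totals were chosen after seeing the data. Pairing comes from the design, since both types come from the same mouse. In the 7 comparisons, in the order of the plot of log2 fold changes, 9, 9, 9, 8, 6, 7 and 9 genes were tested. Of these 5, 0, 5, 6, 5, 5 and 7 were called without the replicate block, against 5, 0, 5, 6, 5, 4 and 7 with it.

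With a mouse left out, the number of genes called between tanycytes and ependymal cells ranged from 0 to 1: without mouse 3 Gpc5 was called at 1.01. For 3 genes, the 4 mice of the type with the highest mean thinned share of cells all lay above those of the next type. This count was 6 unthinned. It ranged from 3 to 6 with a mouse left out (6 without mouse 30, 4 without mouse 3), and was not taken over all genes. Of Fgfr1 and Fgfr2 UMIs alone, Fgfr1 made up 79.0% in ependymal cells in place of 50.5%, and Fgfr2 91.8% in oligodendrocytes in place of 69.4%, since Fgfr3 leaves the denominator.

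Values near 0 turned sign, and the cause was not tested. For Fgfr2 in tanycytes against astrocytes the value was 0.0025 thinned to equal totals, 0.021 with library totals in place of TMM and -0.20 to 0.10 with a mouse left out. For Sdc2 in the same comparison it was -0.0060 without the filter on low counts, -0.0016 without cells of high doublet score and -0.083 to 0.081 with a mouse left out. With library totals Sdc3 in oligodendrocytes against committed precursors was -0.15. Between tanycytes and ependymal cells Sdc3 was 0.34 thinned, and Fgfr3 was 0.022 without cells of high doublet score and -0.12 to 0.011 with a mouse left out. Depth limits Fgfrl1, Fgfr2 in precursors and all values in microglia and vascular leptomeningeal cells, where single UMIs move a level.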
